A study of Macaca mulatta with 2 samples.

Results

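The genes described here are the MHC and antigen presentation genes of the rhesus monkey as they were listed in an expression table of blood DP T cells. They were chosen by symbol, as every gene whose name starts with MAMU-, the prefix of macaque MHC genes, together with 10 named partners. The rule found 16 of the 35432 genes. *MAMU-A*, *MAMU-E* and *MAMU-F* are class I genes, *MAMU-DRA*, *MAMU-DRB1*, *MAMU-DMB*, *MAMU-DOA* and *MAMU-DOB* are class II genes, and *B2M*, *CD74*, *CIITA*, *NLRC5*, *TAPBP*, *PSMB8*, *PSMB9* and *PSMB10* are the partners with a row. The 2 remaining names of the rule, *TAP1* and *TAP2*, which encode the peptide transporter, had no row under these symbols and were not analysed here.

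The cells came from the peripheral blood of 1 untreated rhesus monkey aged 6 years. CD4+ cells were taken from fresh PBMC with releasable magnetic beads, and CD8+ cells were then taken from these with CD8 beads. The sort therefore selects on surface CD4 and CD8 and leaves in any other cell that the beads hold. RNA was read from the 5′ end, surface CD4 and CD8 were read as antibody tags in a second library, and both libraries hold the same 7923 barcodes. With 1 animal and 1 RNA library there is no biological replicate, so no difference below was tested, and every interval (95%) covers counting error only.

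MHC class I molecules are present on nearly all nucleated cells and show peptides from inside the cell to CD8 T cells. They need B2M as their light chain, TAPBP (tapasin) for peptide loading, and the immunoproteasome subunits PSMB8, PSMB9 and PSMB10, which cut proteins into suitable peptides. NLRC5 is the transcriptional activator of class I genes. MHC class II molecules show peptides taken up from outside the cell to CD4 T cells. They are constitutive on B cells, dendritic cells and macrophages, and activated T cells of primates can carry them, whereas mouse T cells do not. DRA and DRB1 are the α and β chains of the DR molecule, CD74 is the invariant chain that guards its groove, DMB belongs to the DM molecule that exchanges CD74 remnants for peptides, DOA and DOB form the DO molecule that holds DM in check, and CIITA is the activator of class II genes.

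Counts of 7601 kept cells were used, with a median of 3636 UMIs, molecules counted once each by their barcode. CD3E+ cells, those with at least 1 UMI of the T cell receptor component *CD3E*, numbered 7311. They were split by whether a cell had a UMI of *CCR7*, the lymph node homing receptor of naïve and central memory cells (2163 cells), *GZMB*, the cytotoxic protease granzyme B (3273), *EOMES*, a transcription factor of memory and innate-like cells (356), *FOXP3*, the factor of regulatory T cells (162), or *MKI67*, a marker of dividing cells (205). These groups share cells, since 732 CD3E+ cells had a UMI of 2 or more of these genes, and a cell without a UMI may still express the gene. Another 86 cells had a UMI of *MS4A1* or *CD79B* and none of *CD3E*, *CD3D* or *CD3G*. In these B gene cells all 14 B cell markers listed were detected, the 2 genes that chose the cells among them, summing to 8159 CPM, UMIs of the gene scaled to a group total of 1e6, while 6 of 8 T cell markers were at 0, 3 of them by the choice of the cells. Monocyte markers summed to 112 CPM there, with *FCN1* and *VCAN* at 0, and dendritic cell markers to 458 CPM, all of it *CD1C*. The remaining 204 cells, with a median of 1514 UMIs, met neither definition. Their class II level was 5706 CPM, their B marker level was 32.2% of that in B gene cells, and 22.5% of them had a B marker UMI.

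B cell RNA was also found in the T cells. Of the CD3E+ cells, 809 (11.1%) had a UMI of 1 of the 14 B cell markers, and the summed marker level in CD3E+ cells was 128 CPM, or 1.57% of that in B gene cells. The cells with such a UMI were deeper, with a median of 4695 UMIs against 3579.5 in the other CD3E+ cells. The origin of these UMIs was not tested. Because B cells are rich in class II RNA, class II values are given with and without the cells that had a B marker UMI.

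The 16 genes lie on 4 chromosomes in the RefSeq annotation of the Mmul_10 genome, the build the authors aligned to. The class II genes and *TAPBP*, *PSMB8* and *PSMB9* are on chromosome 4 between *TAPBP* (chr4:136191811-136205440) and *MAMU-DRA* (chr4:137076488-137081619), with *MAMU-DRB1* at chr4:136905344-136950688. The class I genes follow on the same chromosome, *MAMU-E* at chr4:139406395-139409403, *MAMU-A* at chr4:139971826-139975522 and *MAMU-F* at chr4:140510624-140513214. *CD74* is on chromosome 6, *B2M* on chromosome 7 (chr7:21220625-21227670), and *CIITA*, *NLRC5* and *PSMB10* are on chromosome 20.

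Class I RNA was high in every group of cells and highest in GZMB+ cells. The 6935 CD3E+ cells that could be thinned to 2000 UMIs held a median of 13 class I UMIs, and the median was 16 in GZMB+ cells, 11 in GZMB- cells, 10 in CCR7+ cells and 9 in FOXP3+ cells. No cell type here should lack class I RNA, so no background level can be given for it. The sum of the 3 genes was 8031 CPM (7981 to 8080) in GZMB+ and 5506 CPM (5471 to 5541) in GZMB- cells, a log2 ratio of 0.54. It was 7456 CPM in EOMES+ cells, 6660 CPM in MKI67+ cells, 5321 CPM in CCR7+ cells and 4851 CPM in FOXP3+ cells. The intervals of these 5 groups do not overlap, but the groups share cells. GZMB+ cells also had more class I UMIs per cell, 30.9 against 23.9 on average, although they had fewer UMIs in all, 3851 against 4336. The 8 T cell markers were summed higher in GZMB+ cells too, 4633 against 3317 CPM, and the median log2 ratio of all genes tested was 0.20. The part of total RNA content and of the T cell markers' own shift in these values was not tested.

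The 3 class I genes differed in how far they moved. *MAMU-F*, a nonclassical gene with the lowest count of the 3, had 452 CPM in GZMB+ and 225 CPM in GZMB- cells, a log2 ratio of 1.01 (0.95 to 1.07). *MAMU-A*, the classical gene, had 3683 and 2378 CPM, a log2 ratio of 0.63 (0.61 to 0.65). *MAMU-E*, which presents leader peptides of other class I molecules to NK cell receptors, had 3896 and 2904 CPM, a log2 ratio of 0.42 (0.41 to 0.44). The same order of size, below 0, was measured in CCR7+ cells, with log2 ratios of -0.85, -0.50 and -0.36, in FOXP3+ cells, with -0.85, -0.55 and -0.33, and in B gene cells, with -0.80, -0.43 and -0.28. In FOXP3+ and B gene cells the interval of *MAMU-F* overlapped that of *MAMU-A*. In EOMES+ cells the values were 0.21, 0.22 and 0.17, and their intervals overlapped. In MKI67+ cells all 3 were within 0.14 of 0, and the sign of each of them depended on the cells used.

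The partners of class I went the same way. *B2M* had 11768 CPM in GZMB+ and 7876 CPM in GZMB- cells, a log2 ratio of 0.58 (0.57 to 0.59), and its lowest level of all the groups was in B gene cells, at 4912 CPM. Of the immunoproteasome subunits, *PSMB9* had 485 and 242 CPM in GZMB+ and GZMB- cells, a log2 ratio of 1.01 (0.95 to 1.06), *PSMB8* had 602 and 335 CPM (0.85) and *PSMB10* had 140 and 91.3 CPM (0.62). *TAPBP* and *NLRC5* had log2 ratios of 0.53 and 0.51. After thinning, *PSMB9* was detected in 61.3% of GZMB+ cells and in 37.6% of GZMB- cells, against 77.4% and 58.8% before it. In CCR7+ cells all 6 were lower than in CCR7- cells, from a log2 ratio of -0.83 for *PSMB9* to -0.35 for *TAPBP*.

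By the size rule used here, a CPM ratio of at least 1.5 among genes with enough counts, 10 of the 15 members that entered the comparison were higher in GZMB+ cells and 0 were lower, where 18.2% of the 10087 genes tested were higher and 8.84% lower. The 10 were *MAMU-A*, *MAMU-F*, *PSMB8*, *PSMB9*, *PSMB10*, *MAMU-DRA*, *MAMU-DRB1*, *MAMU-DMB*, *CD74* and *CIITA*. *B2M* lay just below the limit at a ratio of 1.49. In CCR7+ cells 2 members were higher (*MAMU-DRA* and *MAMU-DMB*) and 3 lower (*MAMU-F*, *PSMB9* and *MAMU-DRB1*) of 15, against 5.99% and 13.3% of 9838 genes. In FOXP3+ cells 0 were higher and 5 lower (*MAMU-F*, *MAMU-DRA*, *MAMU-DRB1*, *CD74* and *NLRC5*) of 13, against 3.22% and 12.5% of 3976 genes. In EOMES+ cells 3 were higher (*MAMU-DRA*, *MAMU-DMB* and *CD74*) and 0 lower of 14, against 2.4% and 3.18% of 6000 genes. With *CD3E* and *EOMES* read again from counts thinned to 2000 UMIs, 198 cells were EOMES+. *MAMU-DRA* and *MAMU-DMB* then turned to log2 ratios of -0.66 and -1.07. In the EOMES+ cells called before thinning, *MAMU-DRA* stayed higher after it, with means of 0.259 and 0.172 UMIs per EOMES+ and EOMES- cell. Without cells with a B marker UMI the order turned, with means of 0.0825 and 0.0942. In MKI67+ cells 4 were higher (*MAMU-DRB1*, *CD74*, *PSMB9* and *PSMB10*) and 0 lower of 14, against 12.5% and 3.5% of 5320 genes. In B gene cells 4 were higher (*MAMU-DRA*, *MAMU-DRB1*, *CD74* and *TAPBP*) and 3 lower (*MAMU-F*, *B2M* and *NLRC5*) of 12, against 9.26% and 28.6% of 2073 genes. *MAMU-DMB*, *MAMU-DOB*, *MAMU-DOA* and *CIITA* had too few pooled counts to enter this last comparison, and their levels in B gene cells are given below.

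**Figure D1:**
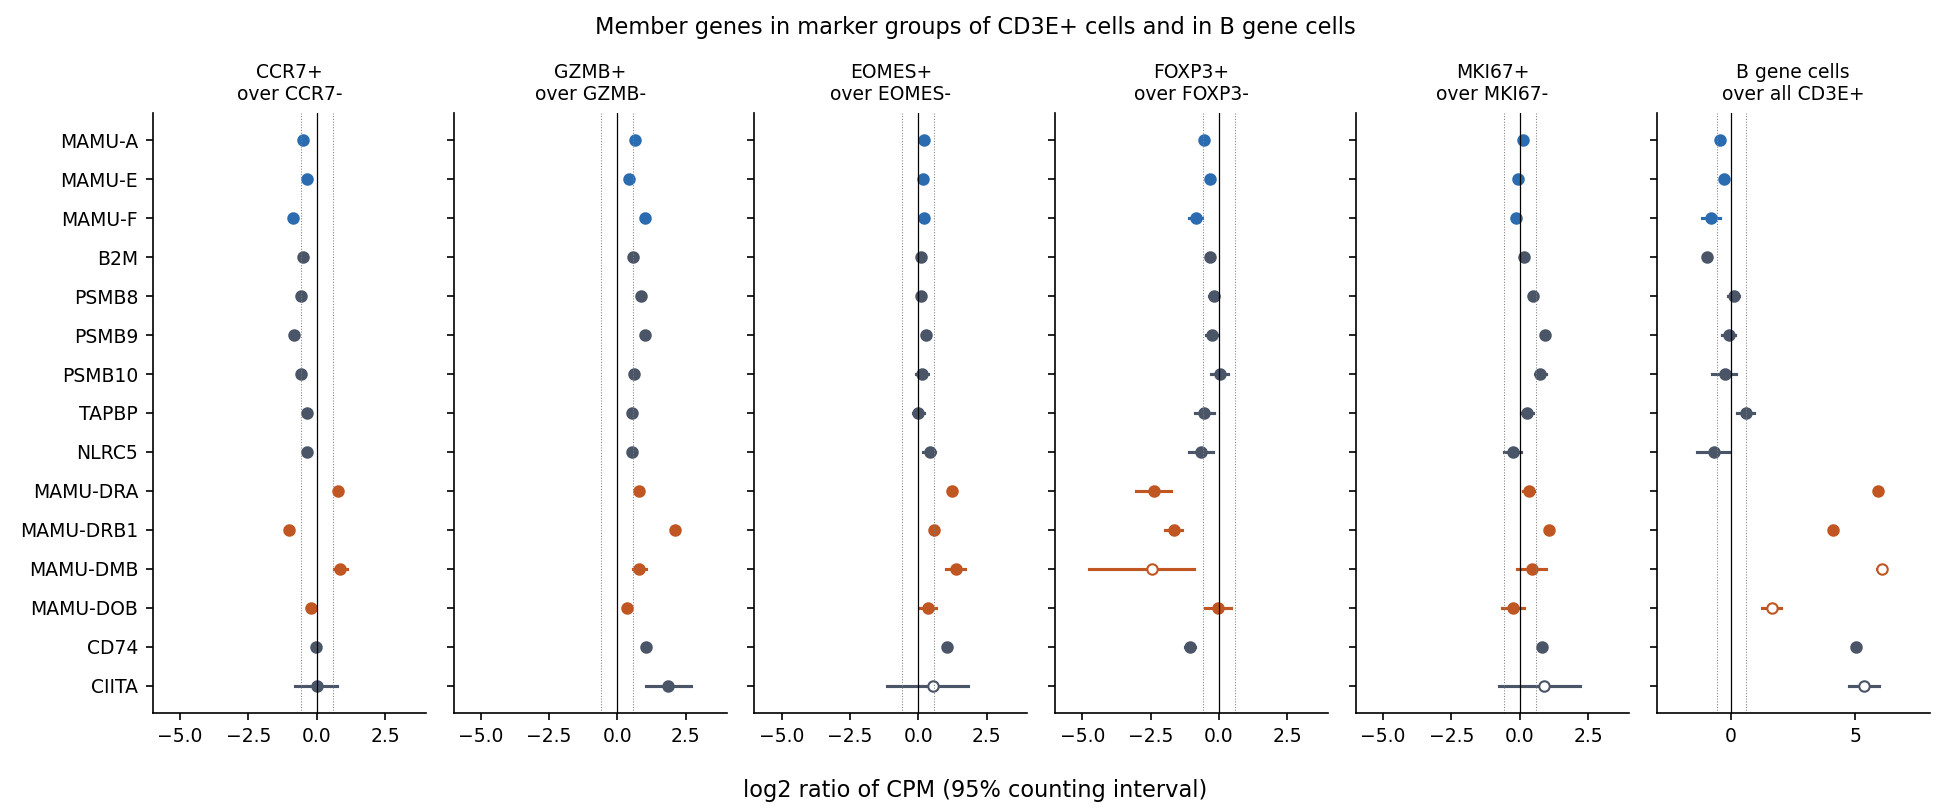
Each panel plots the log2 ratio of CPM of each member (points, x axis) between 2 groups of cells, with the 95% counting interval as a bar; class I genes are blue, class II genes orange and partners grey, open points had too few counts for the size rule, and dotted lines mark a ratio of 1.5. *MAMU-DOA*, with at most 17 UMIs in a group, and *CIITA* in FOXP3+ cells, with 0 UMIs, are not drawn. Class I genes and their partners lie below 0 for CCR7 and above 0 for GZMB, while *MAMU-DRA* and *MAMU-DRB1* lie on opposite sides of 0 for CCR7.

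The levels followed the amount of *GZMB* RNA. Cells were thinned to 2000 UMIs and *CD3E* and *GZMB* read again from the thinned counts. In these CD3E+ cells, fewer than before thinning, the class I sum was 5727 CPM in the 3785 cells without a *GZMB* UMI, 7340 CPM in the 307 cells with 1 UMI, 7941 CPM with 2 to 4, 8559 CPM with 5 to 9, 9237 CPM with 10 to 19 and 9377 CPM in the 65 cells with 20 or more. The last 2 values do not differ beyond their intervals, and each step before them does. Over the same bins *PSMB9* went from 254 to 685 CPM, and *MAMU-DRB1* from 126 to 1062 CPM. *MAMU-DRA* was at 50.2 CPM without *GZMB*, at 84.7 CPM with 1 UMI and between 107 and 123 CPM from 2 UMIs on, where the intervals overlap. These bins include cells with a B marker UMI, which affects *MAMU-DRA* most where *GZMB* is absent. Without such cells, and before thinning, *MAMU-DRA* was at 16.3 CPM in GZMB- and 88.1 CPM in GZMB+ cells.

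**Figure D2:**
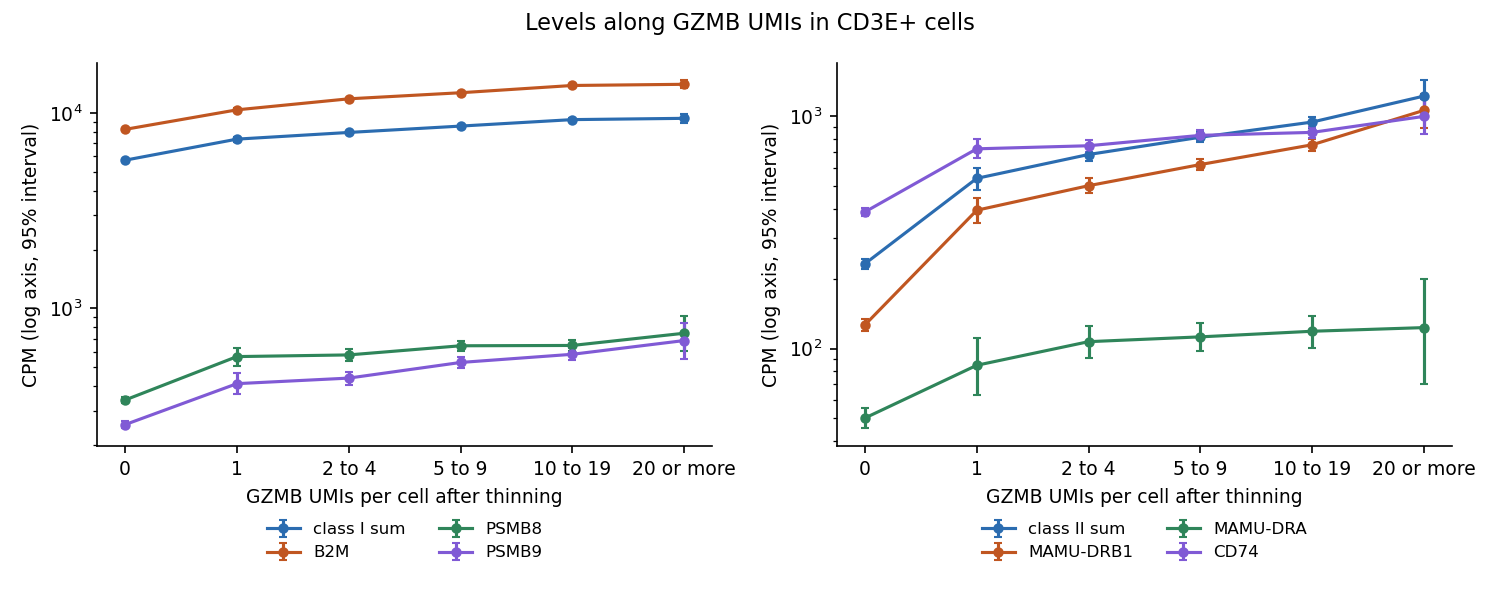
CPM of class I genes and partners (left) and class II genes and *CD74* (right) on log axes, in CD3E+ cells thinned to 2000 UMIs and binned by their *GZMB* UMIs (x axis), with 95% Poisson intervals as bars. Cells with a B marker UMI are included. The class I sum goes from 5727 to 9377 CPM and *MAMU-DRB1* from 126 to 1062 CPM, while *MAMU-DRA* stays below 124 CPM.

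Cells were also divided by *CCR7* and *GZMB* at once. The class I sum was 5095 CPM in the 1898 CCR7+GZMB- cells, 5922 CPM in the 2140 cells with neither, 6404 CPM in the 265 cells with both and 8309 CPM in the 3008 CCR7-GZMB+ cells, and the 4 intervals are apart. The class II sum was 321, 307, 1195 and 849 CPM in the same order. Without cells with a B marker UMI it was 97.4, 209, 354 and 784 CPM, so that the cells with both genes were below the CCR7-GZMB+ cells and the CCR7+GZMB- cells below the cells with neither. The cells with both genes were unlike the rest in depth, with a median of 6609 UMIs against 3262 to 4286 in the other 3 groups, and 25.3% of them had a B marker UMI. What these cells are was not tested.

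**Figure D3:**
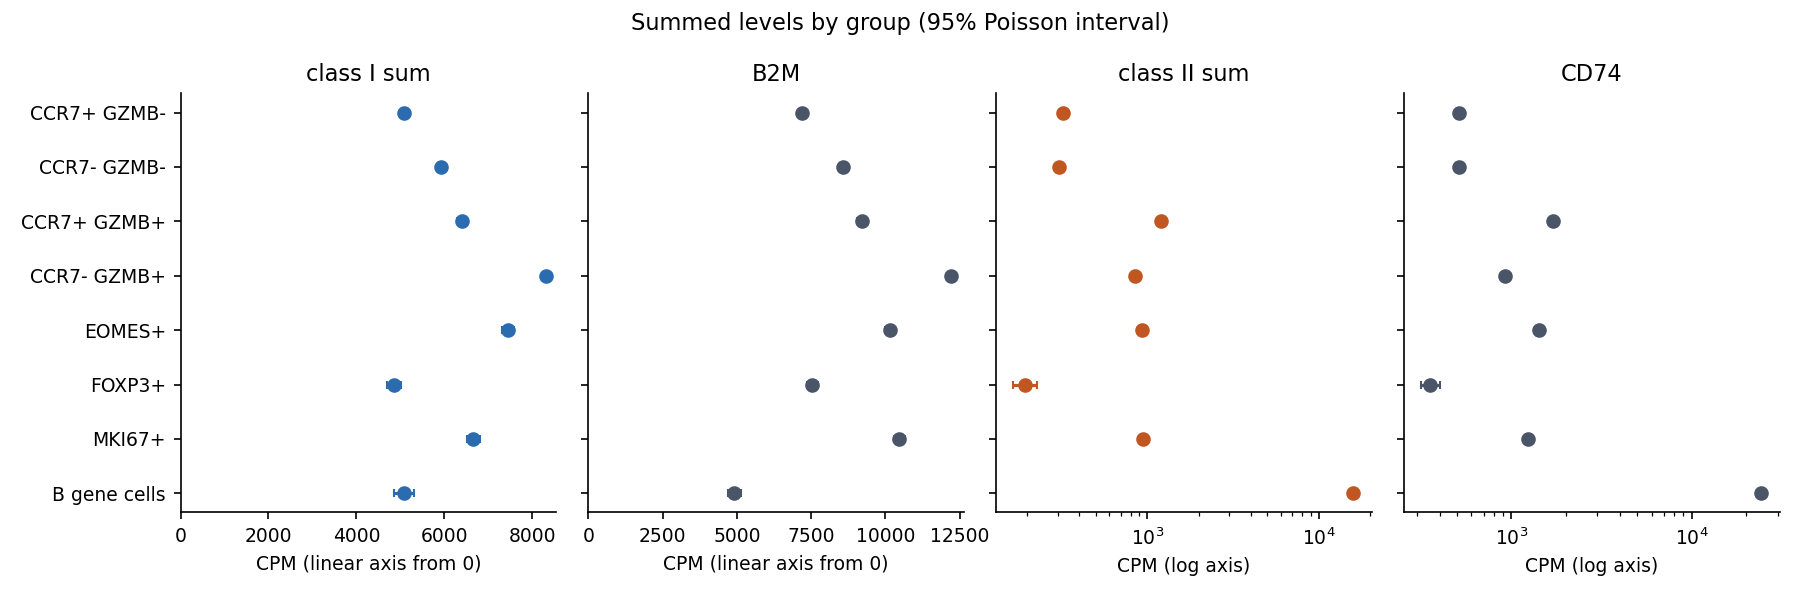
Summed CPM of the 3 class I genes, *B2M*, the 5 class II genes and *CD74* (x axes, linear from 0 in the left 2 panels and log in the right 2) in groups of CD3E+ cells and in B gene cells, with 95% Poisson intervals as bars. B gene cells have the lowest *B2M* and by far the highest class II and *CD74* levels, and among T cells class I is highest in CCR7-GZMB+ cells.

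Class II RNA was highest in B gene cells. Their class II sum was 15807 CPM against 559 CPM in CD3E+ cells, a log2 ratio of 4.82 (4.78 to 4.86). After thinning, the median B gene cell held 32 class II UMIs and the median CD3E+ cell 0. *MAMU-DRA* had 8249 CPM in B gene cells and 137 CPM in CD3E+ cells, a ratio of 60.1 (57.3 to 62.9). *MAMU-DRB1* had 6003 and 350 CPM, a ratio of 17.2 (16.4 to 18.0). *MAMU-DMB* had 1346 and 20.1 CPM, a ratio of 67.1 (59.5 to 75.7), and *CD74* had 24256 and 732 CPM, a ratio of 33.1 (32.3 to 34.0). *CIITA* had 35 UMIs in 86 B gene cells and 68 UMIs in 7311 CD3E+ cells, a ratio of 41.2 (26.6 to 62.9), and *MAMU-DOA* had 17 and 13 UMIs. *MAMU-DOB* was the exception, with 162 and 51.6 CPM and a ratio of 3.14 (2.39 to 4.06). By contrast the class I sum was lower in B gene cells, 5085 against 6563 CPM, with *B2M* at a ratio of 0.517 (0.493 to 0.541).

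In CD3E+ cells *MAMU-DRB1* was found in more cells than *MAMU-DRA*. *MAMU-DRB1* was detected in 42.4% of CD3E+ cells and in 32.9% after thinning, and *MAMU-DRA* in 10.4% and 7.22%. The share for *MAMU-DRB1* after thinning was 57.7% in GZMB+ cells, 60.0% in MKI67+ cells, 42.3% in EOMES+ cells, 16.7% in FOXP3+ cells and 13.5% in CCR7+ cells. The CCR7+ cells without a B marker UMI still gave 11.0% (9.58 to 12.6). This group holds some GZMB+ cells, and no group of T cells here can be taken to lack the gene, so a background share is not known. FOXP3+ cells, at 16.7% (11.3 to 23.3), were not apart from CCR7+ cells by their intervals. The 1% of CD3E+ cells with most UMIs of each gene held 63.2% of the *MAMU-DRA* UMIs, 20.3% of the *MAMU-DRB1* UMIs and 3.25% of the class I UMIs.

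In the split by *CCR7*, class II genes went opposite ways when all cells were used at full depth. *MAMU-DRA* had 188 CPM in CCR7+ and 110 CPM in CCR7- cells, a log2 ratio of 0.77 (0.68 to 0.86), and *MAMU-DMB* 28.3 and 15.6 CPM (0.86). *MAMU-DRB1* went the other way, with 209 and 427 CPM and a log2 ratio of -1.03 (-1.10 to -0.96). The CCR7+ cells had a B marker UMI in 18.4% of cells, against 7.96% of CCR7- cells. Without those cells *MAMU-DRA* had 11.1 CPM in CCR7+ and 64.9 CPM in CCR7- cells, a log2 ratio of -2.55 (-2.88 to -2.24), *MAMU-DMB* 2.0 and 8.4 CPM (-2.09), *MAMU-DRB1* 76.5 and 411 CPM (-2.43) and *CD74* 242 and 593 CPM (-1.29). All 4 then went the same way as class I.

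The split by *GZMB* showed the same direction with and without those cells. *MAMU-DRB1* had 632 CPM in GZMB+ and 147 CPM in GZMB- cells, a log2 ratio of 2.11 (2.04 to 2.17), and 579.5 and 90.5 CPM without cells with a B marker UMI (2.68). *MAMU-DRA* had 181 and 106 CPM, a log2 ratio of 0.78, and 88.1 and 16.3 CPM without them (2.43). *CD74* had 1040 and 510 CPM (1.03), and 752 and 271 CPM without them (1.47). *CIITA* was scarce, with 49 UMIs in GZMB+ and 19 UMIs in GZMB- cells, a log2 ratio of 1.84 (1.05 to 2.69). Without cells with a B marker UMI only 26 and 4 UMIs remained, a log2 ratio of 3.06 (1.53 to 5.04). *MAMU-DOB* had 58.9 and 46.4 CPM (0.35), the smallest difference of the 4 class II genes that entered the size rule. In GZMB+ cells without a B marker UMI, 4 of 6 dendritic cell markers and 4 of 9 monocyte markers were at 0, and the 2 lists summed to 1.69 and 10.3 CPM, against 8.1 and 8.6 CPM in GZMB- cells. NK cell markers, several of which cytotoxic T cells share, summed to 289 CPM against 86.4 CPM.

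The number of *MAMU-DRA* UMIs for each *MAMU-DRB1* UMI does not depend on library totals. It is compared only between groups, since the 2 transcripts need not be captured alike. It was 1.37 (1.30 to 1.45) in B gene cells. In the cells that met neither definition, with 32.2% of the B gene cells' marker level, it was 1.19 (1.10 to 1.29). In CD3E+ cells it was 0.393 (0.379 to 0.407), and it ranged from 0.242 in FOXP3+ to 0.897 in CCR7+ cells among the 5 marker groups, and from 0.209 in CCR7-GZMB+ to 1.02 in CCR7+GZMB- cells among the groups by both genes. Without cells with a B marker UMI it was 0.157 (0.148 to 0.167), and between 0.145 and 0.25 in all 10 groups with or without a marker. In the CD3E+ cells with a B marker UMI it was 1.07 (1.01 to 1.12). A mixture with 1.57% of the B gene cells' level would hold 129 CPM of *MAMU-DRA*, where 137 CPM was measured, and 94.1 CPM of *MAMU-DRB1*, where 350 CPM was measured. For *MAMU-DMB* these values are 21.1 and 20.1 CPM, and for *CD74* 380 and 732 CPM. In CCR7+GZMB- cells, with 2.03% of the B gene cells' level, the mixture would hold 122 CPM of *MAMU-DRB1*, where 128 CPM was measured, and 167 CPM of *MAMU-DRA*, where 130 CPM was measured. In CCR7-GZMB+ cells, with 0.65% of that level, it would hold 53.7 CPM of *MAMU-DRA*, where 133 CPM was measured. For *MAMU-DRB1* the values in CCR7-GZMB+ cells are 39.1 and 638 CPM. In CCR7+GZMB- cells without a B marker UMI, 44.8 CPM of *MAMU-DRB1* was still measured. In FOXP3+ cells the mixture would hold 57.8 CPM of *MAMU-DRA*, where 27.3 CPM was measured, and 42.0 CPM of *MAMU-DRB1*, where 113 CPM was measured. These mixture values assume that RNA of B cell markers and of class II genes is carried over alike. The part of B cell RNA in the class II values was not tested.

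**Figure D4:**
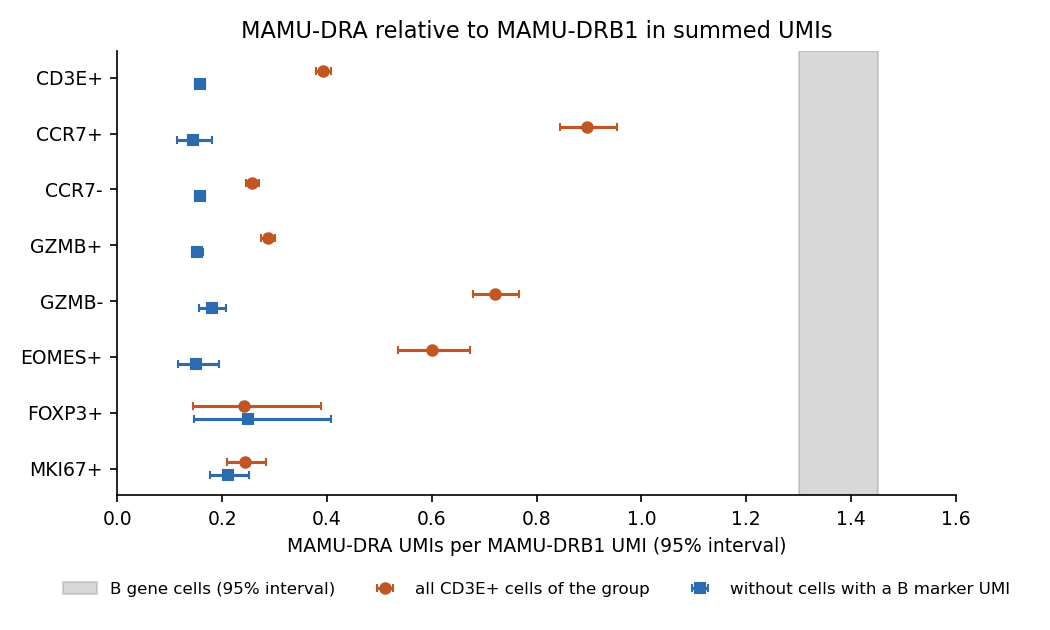
*MAMU-DRA* UMIs per *MAMU-DRB1* UMI (x axis) in groups of CD3E+ cells, with all cells (circles) and without cells that had a B marker UMI (squares), and 95% intervals as bars; the grey band is the interval of B gene cells. The circles spread from 0.242 to 0.897, and the squares lie between 0.145 and 0.25.

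EOMES+ cells had more class II RNA than EOMES- cells when all cells were used at full depth, but by less once cells with a B marker UMI were left out. With *CD3E* and *EOMES* read again from thinned counts, the class II log2 ratio came close to 0, at 0.052 from 198 EOMES+ cells. In the EOMES+ cells called before thinning, the mean after it was 1.18 class II UMIs per cell, against 0.960 in EOMES- cells. Without cells with a B marker UMI these means were 0.901 and 0.846. Among cells without a B marker UMI, the class II log2 ratio at full depth was -0.21 (-0.37 to -0.06) within GZMB+ cells. Within GZMB- cells it was 1.45 (1.26 to 1.63). The class II sum was 931 CPM in EOMES+ and 539 CPM in EOMES- cells, a log2 ratio of 0.79 (0.71 to 0.87), but 503 and 406 CPM without cells with a B marker UMI (0.31). *MAMU-DRA* had 306 and 128 CPM (1.25), and 55.5 and 47.4 CPM without those cells, a log2 ratio of 0.23 (-0.14 to 0.57). *CD74* kept its difference, 1429 and 694 CPM (1.04), and 948 and 457 CPM without those cells (1.05). After thinning, *CD74* was detected in 59.2% of the EOMES+ cells called before it, above the 49.98% of GZMB+ cells. *MAMU-DRB1* was detected in 42.3% and 57.7% of the same groups.

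FOXP3+ cells had the least class II RNA of the 5 groups when all cells were used, at 195 CPM (166 to 228), but more than CCR7+ cells without cells with a B marker UMI, 231 against 135 CPM. With all cells the log2 ratio was -1.55 (-1.78 to -1.32) against FOXP3- cells. *MAMU-DRB1* had 113 and 356 CPM (-1.66), *MAMU-DRA* 27.3 and 140 CPM (-2.36) and *CD74* 355 and 742 CPM (-1.06). Without cells with a B marker UMI the differences were smaller, with log2 ratios of -1.14 for *MAMU-DRB1*, -0.45 (-1.15 to 0.17) for *MAMU-DRA* and -0.16 (-0.35 to 0.02) for *CD74*. Within the GZMB- cells among these, *CD74* was higher in FOXP3+ cells, 361 against 268 CPM, a log2 ratio of 0.43 (0.21 to 0.65). Within the GZMB+ cells it was at 0.03 (-0.31 to 0.35), from 16 FOXP3+ cells. *MAMU-DMB* had 3 UMIs and *CIITA* and *MAMU-DOA* had 0 in the 162 FOXP3+ cells, which allows up to 3.73 CPM for each of the last 2. Of the immunoproteasome subunits, *PSMB9* was at a log2 ratio of -0.27 (-0.46 to -0.08), *PSMB8* at -0.18 (-0.35 to -0.02) and *PSMB10* at 0.03 (-0.28 to 0.33). Without cells with a B marker UMI they were at -0.44, -0.29 and 0.16. Split further by *GZMB*, *PSMB9* was at 0.007 (-0.27 to 0.27) within GZMB- and -0.52 (-1.04 to -0.05) within GZMB+ cells.

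MKI67+ cells combined high class II and immunoproteasome RNA with a class I CPM near that of other cells. They were deeper than MKI67- cells, with means of 5981.5 against 4065 UMIs, and held 39.8 against 26.7 class I UMIs per cell. The class II sum was 944 CPM, a log2 ratio of 0.80 (0.71 to 0.88) against MKI67- cells, and the class I sum had a log2 ratio of 0.02 (-0.01 to 0.05). *MAMU-DRB1* had 701 and 335 CPM (1.07), *PSMB9* 625 and 332 CPM (0.91), *CD74* 1242 and 710 CPM (0.81) and *PSMB10* 183 and 109 CPM (0.75). The summed B cell markers were lower in MKI67+ cells than in MKI67- cells, 64.4 against 131 CPM. A B marker UMI was nevertheless found in a larger share of MKI67+ cells, 14.1% against 11.0%. Without cells with a B marker UMI the class II log2 ratio was 1.35. Among those cells class I was at -0.11 (-0.15 to -0.06) within GZMB+ and at 0.01 (-0.05 to 0.07) within GZMB- cells.

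Since *GZMB* divides the cells so strongly, the other 4 splits were repeated within GZMB- and GZMB+ cells that had no B marker UMI, a choice made after the data had been seen. In GZMB- cells the class II sum was higher with *MKI67*, a log2 ratio of 2.33 (2.13 to 2.52) from 56 cells, and with *EOMES*, 1.45 (1.26 to 1.63) from 187 cells. In GZMB+ cells these ratios were 0.69 (0.58 to 0.80) and -0.21 (-0.37 to -0.06). The GZMB- MKI67+ value rests on few cells, since 5 cells held 66.8% of its *MAMU-DRB1* UMIs and 88.0% of its *MAMU-DRA* UMIs, but *MAMU-DRB1* was detected in 28 of the 56 cells, against 18.5% of the GZMB- MKI67- cells. The median depth of the 56 cells was 5377 UMIs against 3951. Among GZMB- EOMES+ cells, 43.9% (36.6 to 51.3) had a *MAMU-DRB1* UMI and 67.4% (60.2 to 74.0) a *CD74* UMI, against 17.6% and 34.1% of GZMB- EOMES- cells, at median depths of 3531 and 3987 UMIs. The CCR7 split kept its direction in both, with class II log2 ratios of -1.10 and -1.15. The FOXP3 split rested on 112 FOXP3+ cells among GZMB- and only 16 among GZMB+ cells. For class II its intervals held 0, at -0.11 (-0.47 to 0.23) in GZMB- and -0.20 (-0.57 to 0.14) in GZMB+ cells. For class I it was below 0, at -0.24 (-0.30 to -0.18) and -0.39 (-0.50 to -0.28). Class I in the EOMES split was at 0.41 (0.37 to 0.45) in GZMB- cells. In GZMB+ cells it was below 0, at -0.07 (-0.11 to -0.03).

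**Figure D5:**
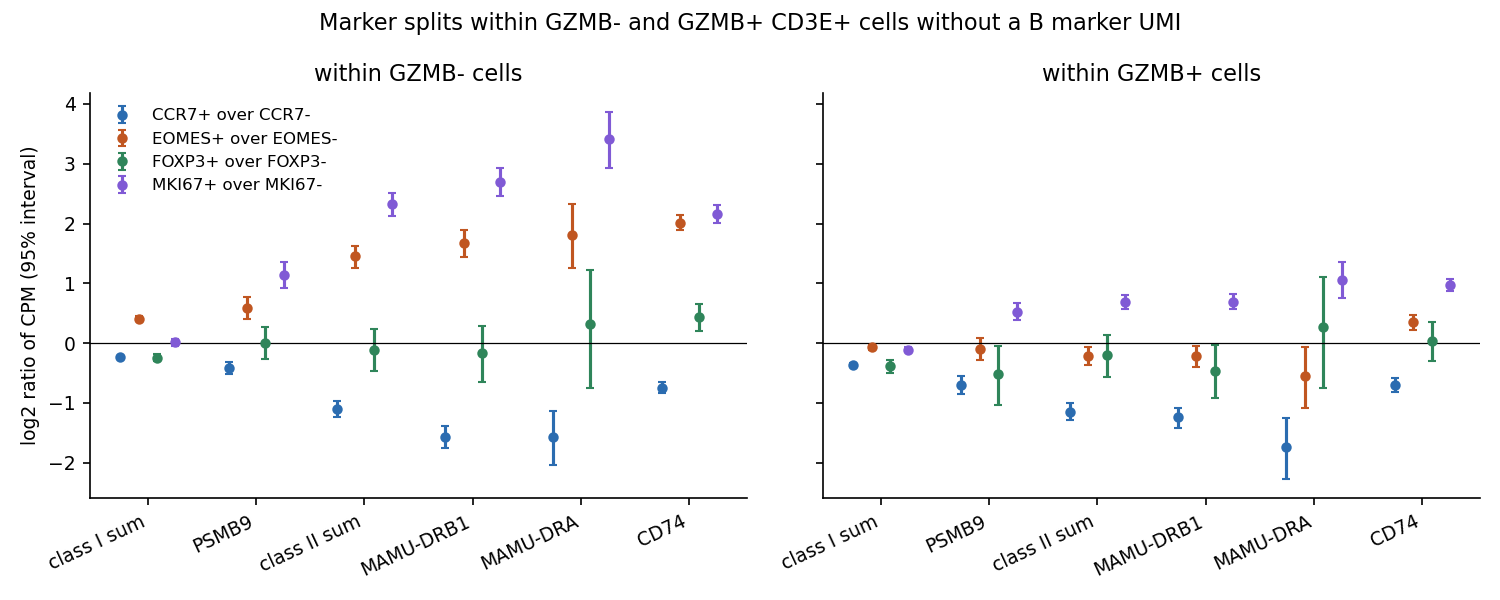
Log2 ratio of CPM (y axis) between cells with and without a UMI of *CCR7*, *EOMES*, *FOXP3* or *MKI67* (colours), within GZMB- (left) and GZMB+ (right) CD3E+ cells that had no B marker UMI, with 95% counting intervals as bars. *MKI67* and *EOMES* go with class II genes and *CD74* more in GZMB- cells, with class II log2 ratios of 2.33 and 1.45 on the left and 0.69 and -0.21 on the right.

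Other genes of the 2 pathways were taken from lists. Of the class I list, with the proteasome activators, chaperones and interferon factors, 18 genes entered the comparison for GZMB and 6 were past a ratio of 1.5 upward and 0 downward, with a median log2 ratio of 0.47, where 18.2% of all genes tested were past it upward and 8.84% downward. They included *IRF1* (1.01), the interferon regulatory factor, *PSME2* (0.76), an activator of the immunoproteasome, and the peptide editor *TAPBPL* (0.93). The constitutive subunit *PSMB5*, which PSMB8 replaces in the immunoproteasome, was at -0.25 in GZMB+ cells and 0.27 in CCR7+ cells, opposite in sign to *PSMB8*. The split by class II UMIs described below is a different comparison. The other constitutive subunits on the list, *PSMB6* and *PSMB7*, were at 0.92 and 0.51 there. *PSMB5* was at -0.35 (-1.17 to 0.39) in it, from 17 and 129 UMIs. In CCR7+ cells 0 of 18 were past 1.5 upward and 4 downward, against 5.99% and 13.3% of all genes. Of the interferon response list 20 genes entered, and 9 were higher and 1 lower in GZMB+ cells, among them *BST2* (0.98) and *MX2* (1.35), with 0 and 9 in CCR7+ cells.

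The class II list was divided. Of its 20 genes entering for GZMB, 7 were past 1.5 upward and 3 downward, against 18.2% and 8.84% of all genes. *IFI30*, a thiol reductase of the class II compartment, was at 1.46 and the protease *CTSS*, which trims the invariant chain, at 0.82, whereas *CTSH* was at -1.85, *CTSL* at -1.71 and *LGMN* at -2.11, all proteases of the same compartment. In CCR7+ cells 6 of 20 were past 1.5 upward and 2 downward, against 5.99% and 13.3% of all genes. In FOXP3+ cells 2 of 9 were past it upward and 0 downward, against 3.22% and 12.5% of all genes. *CTSH* was at 1.97 and *CTSL* at 1.62 there. *RFX5* and *RFXANK*, subunits of the factor that binds MHC promoters, were at 0.38 and 0.33 in GZMB+ cells.

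The genes that went with class II RNA in T cells were then listed, in cells thinned to 2000 UMIs that still had a *CD3E* UMI and had no B marker UMI. The 569 cells with at least 3 class II UMIs (9.82%) were set against the 3393 cells with 0, and 1833 cells lay between. The split was made on class II UMIs, so class II values in it are no result. A *GZMB* UMI was found in 85.4% of the first and 26.1% of the second group, and a *CCR7* UMI in 1.76% and 23.05%. The 10 other genes furthest up were *HBA*, *GZMB*, *CCL5*, *CX3CR1*, *CST7*, *KLRD1*, *TRBV7-3*, *RGS9*, *NKG7* and *ZEB2*. *CCL5*, a chemokine of cytotoxic cells, had 786 and 170 CPM, and *CX3CR1*, a receptor of effector cells in blood, 189 and 39.3 CPM. Those furthest down included *RCAN3*, *CCR7*, *CD7*, *LEF1*, *PECAM1*, *SATB1*, *GPR183*, *CCR9* and *IFNGR2*, of which the naïve T cell factor *LEF1* had 12.3 and 135 CPM.

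*HBA*, the hemoglobin α chain, was the first of that list, with 163 and 18.9 CPM. Its UMIs were spread over 141 of the 569 cells and 107 of the 3393 cells, with at most 4 UMIs in a cell. Of the 4 red blood cell markers with a row, *ALAS2* and *CA1* were at 0 in the cells high in class II. No B cell marker had a UMI in either group, by the choice of the cells, and 7 of 9 monocyte markers and 5 of 6 dendritic cell markers were at 0 in the cells high in class II. The red cell list summed to 163 and 19.3 CPM, but *HBA* itself held 185 of its 186 and 128 of its 131 UMIs. The NK cell list summed to 272 and 148 CPM. The part of red cell and NK cell RNA in the split was not tested.

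Partners of class I and class II, and *MAMU-F*, had higher values in the cells high in class II. The cells were split on other members, so these values are description only and no separate result. The groups also differed in *GZMB*, and its part in these values was not tested. *CD74* had 2033 and 204 CPM (log2 ratio 3.32), *PSMB9* 614 and 280 CPM (1.13), *MAMU-F* 539 and 294 CPM (0.87) and *B2M* 13139 and 8983 CPM (0.55). Of the activation genes listed, *PDCD1* (1.45) and *GZMK* (1.27) were higher, *CD38* (0.05) and *CD69* (0.13) were near 0, and *CD28* (-1.39) was lower. *IL2RA* had 1 and 62 UMIs. The CD4 tag was lower in the cells high in class II, with a median of 331 UMIs against 410 in those with 0. The medians for the CD8 tag were 309 and 344. The ranges between quartiles overlapped, from 261 to 429 and from 318 to 513 for CD4.

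Some MHC features of the deposited gene list carried no symbol and lay outside the rule. A table of gene names calls 4 of them *Mamu-B*, *Mamu-AG4*, *MAMU-DPA* and *Mamu-DPA1*. *Mamu-B*, a second classical class I gene, had 1760 CPM in GZMB+ and 1410 CPM in GZMB- cells, a log2 ratio of 0.32 (0.29 to 0.35), below that of *MAMU-A*. *Mamu-DPA1* had 171 and 54.5 CPM (1.65) and *MAMU-DPA* 31.7 and 9.25 CPM (1.78). Both were also higher in B gene cells, with ratios of 8.55 (7.61 to 9.58) and 11.0 (8.54 to 14.0), below those of *MAMU-DRA* and *MAMU-DRB1*. MHC genes have many near-identical copies and alleles. No stretch of 90 bases in the first 500 bases of the RefSeq transcripts of the 8 MAMU- members was shared with another RefSeq gene, and of the partners *TAPBP* shared some with *ZBTB22*. Reads of the animal's own alleles may still have been given to another MHC gene or dropped, so values of single MAMU- genes remain uncertain.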

How the data were processed

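The series holds 1 RNA library and 1 antibody tag library of 1 animal. The authors deposited counts of UMIs, not normalized, for every gene and tag in each barcode. Their notes name Cell Ranger 3.1.0, STAR 2.5.1b and the Mmul_10 build. Seurat 3.1.3 is also named in the submitters' processing notes. No source used here gives the annotation release.

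Barcodes with fewer than 200 or more than 4000 genes, or over 20% of UMIs from mitochondria, were left out as in the study, which kept 7601 of 7923 barcodes. The mitochondrial genes were 12 named features and 2 without a symbol that lie in the same block of the gene list. The total was 32297887 gene UMIs. Counts were summed over the cells of a group and divided by the group's total UMIs (CPM). CPM intervals are exact Poisson intervals, ratio intervals come from the exact binomial split of both counts, and intervals of shares are Clopper-Pearson intervals, all at 95%. They cover counting error only. Shares were also computed after thinning each cell to 2000 UMIs (seed 1), which kept 7106 cells and left out 495. A count of 0 was taken to allow 3 counts.

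Genes entered the size rule (ratio of at least 1.5) when their pooled level gave at least 20 UMIs in the smaller group. In the split by class II UMIs, genes were ranked by the ratio of CPM + 10 among genes with a symbol and at least 50 UMIs in both groups together, and the first 10 in each direction were named, except for 1 that is not reported here, with all members, the markers and the genes of the pathway lists. Beyond these, genes named from the lists were chosen after their values had been seen. No doublet was removed, and the alternatives leave out cells with a B marker UMI or the 5% of cells (380) with most UMIs. The members and gene lists were chosen with earlier results of these data known. Positions and transcripts are from RefSeq for Mmul_10 by symbol, and 16 of 16 members matched. Computation was tested on simulated data. Python 3.11.15, numpy 2.4.6, scipy 1.17.1, pandas 2.3.3 and matplotlib 3.10.9 were used.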

Additional observations from a re-analysis of the deposited data

How the results depend on the processing

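No paired analysis was possible because there is 1 animal and no replicate. Values below are log2 ratios in the order CCR7, GZMB, EOMES, FOXP3, MKI67 and B gene cells where several are given, and all rest on cells of 1 library. Class I was at -0.44, 0.54, 0.19, -0.45, 0.02 and -0.37, and class II at -0.36, 1.52, 0.79, -1.55, 0.80 and 4.82. The direction of both classes for GZMB, EOMES, FOXP3 and B gene cells, of class I for CCR7 and of class II for MKI67 held under all 7 alternatives. Among these, class II for EOMES came close to 0, at 0.052 from 198 cells called EOMES+ on thinned counts. Class I for FOXP3 came to -0.10 from 39 FOXP3+ cells. Splits within GZMB- and GZMB+ cells were not among the 7 alternatives. Within GZMB+ cells without a B marker UMI, EOMES was at -0.07 for class I and -0.21 for class II. Without CD3E+ cells with a B marker UMI, class II moved to -2.00, 2.25, 0.31, -0.85, 1.35 and 5.27 and class I for CCR7 to -0.47. Without the 5% of cells with most UMIs, class II moved to -1.51, 2.05, 0.17, -1.14, 0.89 and 5.20, and class I to -0.47 for CCR7, 0.58 for GZMB and 0.20 for MKI67. Cells were also thinned to 2000 UMIs and the groups called again on the thinned counts. Class II then moved to -1.42 for CCR7, 1.77 for GZMB, 0.052 for EOMES, 1.12 for MKI67 and 5.01 for B gene cells. Class I moved to -0.39, 0.56, 0.26, -0.40 and 0.14 for the 5 markers. With cells that had 1 of the 5 markers set against cells with none, class II for CCR7 turned to 0.062 and otherwise moved to -1.08 for FOXP3, 1.74 for MKI67 and 5.81 for B gene cells, and class I to -0.23, 0.51, 0.27 and -0.10 for CCR7, GZMB, EOMES and FOXP3 and -0.21 for B gene cells. With markers at 2 or more UMIs, class I moved to -0.46, 0.57, 0.25 and -0.21 for CCR7, GZMB, EOMES and MKI67, and class II to 0.39 for EOMES and 1.03 for MKI67. With all deposited barcodes, class I moved to 0.53 for GZMB and -0.014 for MKI67, and class II to -0.18 for CCR7 and 4.76 for B gene cells. With the 4 features that a gene table names, an alternative chosen after seeing the data, class I moved to -0.41 for CCR7 and 0.50 for GZMB, and class II to -0.47 for CCR7 and 4.63 for B gene cells.

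Of the single genes whose interval lay apart from 0, these turned. For CCR7, *MAMU-DRA* was at -0.91 thinned, -2.55 without B marker cells and -0.73 without the deepest cells, *MAMU-DMB* at -1.20, -2.09 and -0.66, and *CD74* at 0.11 with all barcodes. For EOMES, *MAMU-DRA* was at -0.66 thinned and -0.44 without the deepest cells, *MAMU-DMB* at -1.07 thinned, -0.022 without the deepest cells and -0.25 with 1 marker only, and *MAMU-DOB* at -0.14 at 2 or more UMIs. For FOXP3, *PSMB8* was at 0.16 at 2 or more UMIs and 0.10 with 1 marker only, and *MAMU-F* at 0.0061 with 1 marker only. For MKI67, *MAMU-A* was at -0.027 at 2 or more UMIs and *MAMU-E* at 0.0065 thinned and 0.13 without the deepest cells. Genes whose interval held 0 also changed sign under some alternative, namely *MAMU-DOA* and *CIITA* for CCR7, *TAPBP* and *CIITA* for EOMES, *MAMU-DOB* and *PSMB10* for FOXP3, *MAMU-DOB* and *MAMU-F* for MKI67, and *PSMB8* and *PSMB9* for B gene cells. The cause of these changes was not tested.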
